A study of Mus musculus with 12 samples.

Results

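Cell cycle and mitosis genes in diabetic mouse wounds are described here: 45 genes picked by name, among the 54232 gene identifiers of each count table. Their names were matched to the Ensembl identifiers through GENCODE M21, a public mouse annotation. All 45 were found, and all passed the requirement of 15 or more counts in all and the filter on low counts. They fall into 9 roles: 2 proliferation markers, 8 G1 cyclins and kinases, 3 transcription factors, 11 licensing and replication genes, 5 mitotic cyclins with their kinase and its phosphatase, 6 mitotic kinases and checkpoint genes, 2 genes of the anaphase promoting complex pathway, 4 motors and kinetochore genes and 4 inhibitors of cyclin-dependent kinases (CDKs).

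The 12 libraries came from male Lepr (db/db) mice on C57BLKS/J, which lack a working leptin receptor and become obese and diabetic. Every group carried this genotype, so no library represents a non-diabetic wound. The label gives an age of 12.5 weeks, while the design text gives 12 weeks at wounding. A full-thickness 6 mm punch wound on the back was covered with Tegaderm film alone (TD, n = 5), with a patch made to put about 30% strain on the wound (Strain, n = 4) or with a patch that exerted no strain (No Strain, n = 3), and wound tissue was taken on day 10. The comparisons ask how stretching the wound, and wearing a patch at all, relate to expression. Titles hold an L or an R beside a number, and neither is explained. The letter is not balanced between the groups. In TD only TD 1 has an L, and among the patch libraries only Strain 3 and No Strain 1 have an R. Letter and dressing are therefore partly mixed, also where the letter serves as a covariate. The TD libraries have the numbers 1 to 6 and the patch libraries 7 to 15, so position in this series and treatment cannot be told apart. Whether some wounds came from 1 mouse is not stated, so p-values measure the spread between these samples.

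In the textbook account, D-type cyclins with Cdk4 or Cdk6 release E2F transcription factors from RB proteins in G1, which switches on the genes that license origins and copy DNA. Cyclin B with Cdk1 then drives mitosis, the spindle checkpoint holds the cell until chromosomes are attached, and the anaphase promoting complex ends mitosis by destroying cyclins. CDK inhibitors counter these kinases. In healing skin, dividing keratinocytes, fibroblasts, endothelial cells and immune cells all use this machinery, so bulk RNA does not show which cells divided, and fewer cells of a type and less RNA per cell cannot be told apart.

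Promoters are shown first because genes of one phase are classically read through shared motifs. The windows, from RefSeq on GRCm38.p6, are the 250 bases before the annotated start, and 35 of the 45 members matched by symbol, with 39 windows, leaving Ccna2, Ccnd1, Ccnd2, Ccne2, Cdc25c, Aurkb, Cdkn1c, Foxm1, Kif20a and Mcm4. The motifs were searched on both strands: the CHR element of mitotic genes (TTTGAA), the CCAAT box (CCAAT), and E2F sites (TTTCGCGC, TTTGGCGC or TTTCCCGC). E2F matches on opposite strands can share letters, and CHR and CCAAT matches can share a letter. Among the 15 windows of mitotic members and proliferation markers, 46.7% held a CHR against 16% of all 32851 windows, and 93.3% held a CCAAT box against 33.8%. Among the 11 windows of licensing and replication members, 36.4% held an E2F match against 1.53% of all windows. A CCAAT box was also held by 72.7% of these windows and by 64.1% of all 39 member windows, so it was not particular to mitotic members. These shares are descriptions: a match is not a bound site, and no test was made.

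Genes on which the results turn are shown as examples, with the matches in capitals and the rest in lower case, each 5′ to 3′ on the gene's own strand, which is the minus strand for all of them. Top2a (chr11:99024190-99024439) holds CHR and CCAAT letters, Cdk1 (chr10:69352913-69353162) holds all 3 motifs, Ccnb1 (chr13:100786487-100786736) holds CCAAT boxes alone, and the upstream window of Mcm7 (chr5:138171884-138172133) holds an E2F match and CCAAT boxes.
Top2a: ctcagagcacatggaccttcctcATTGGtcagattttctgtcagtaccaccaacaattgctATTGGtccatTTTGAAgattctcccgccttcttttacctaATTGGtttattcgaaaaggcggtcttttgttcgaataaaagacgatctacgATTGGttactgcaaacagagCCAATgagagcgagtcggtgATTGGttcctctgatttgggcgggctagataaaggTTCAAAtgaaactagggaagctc
Cdk1: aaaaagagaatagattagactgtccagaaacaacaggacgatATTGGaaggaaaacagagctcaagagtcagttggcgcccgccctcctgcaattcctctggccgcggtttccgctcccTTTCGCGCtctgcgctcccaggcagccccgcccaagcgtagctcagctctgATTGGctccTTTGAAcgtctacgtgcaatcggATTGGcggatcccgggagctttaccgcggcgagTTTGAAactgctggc
Ccnb1: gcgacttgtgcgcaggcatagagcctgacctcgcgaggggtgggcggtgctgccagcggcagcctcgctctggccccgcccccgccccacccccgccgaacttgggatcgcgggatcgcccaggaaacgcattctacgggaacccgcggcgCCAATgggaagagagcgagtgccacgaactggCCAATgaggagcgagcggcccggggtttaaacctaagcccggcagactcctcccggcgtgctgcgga
Mcm7: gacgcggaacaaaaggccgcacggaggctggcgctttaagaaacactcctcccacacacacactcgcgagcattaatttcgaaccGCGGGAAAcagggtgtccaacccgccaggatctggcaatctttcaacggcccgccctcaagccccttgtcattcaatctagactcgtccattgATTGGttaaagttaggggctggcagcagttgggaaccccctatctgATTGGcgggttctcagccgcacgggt
In the Cdk1 window the 2 CHR matches begin 71 and 15 bases before the start. In the Top2a window, 6 CCAAT boxes and 2 CHR matches are spread over the window.

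Cdkn2a is shown for another reason: it has 2 starts, whose transcripts encode different proteins, and the count table gives 1 value for both. The upstream window (chr4:89294620-89294869, minus strand) precedes the first exon of p19Arf and has an E2F match 99 bases before the start. The downstream window (chr4:89282193-89282442, minus strand) precedes that of p16Ink4a and has none of the letters searched.
Cdkn2a, upstream start: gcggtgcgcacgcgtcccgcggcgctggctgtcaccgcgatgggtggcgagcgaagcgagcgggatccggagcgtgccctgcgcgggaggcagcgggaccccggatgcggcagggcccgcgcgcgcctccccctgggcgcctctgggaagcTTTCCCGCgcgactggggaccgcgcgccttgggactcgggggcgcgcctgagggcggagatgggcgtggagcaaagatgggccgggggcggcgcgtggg
Cdkn2a, downstream start: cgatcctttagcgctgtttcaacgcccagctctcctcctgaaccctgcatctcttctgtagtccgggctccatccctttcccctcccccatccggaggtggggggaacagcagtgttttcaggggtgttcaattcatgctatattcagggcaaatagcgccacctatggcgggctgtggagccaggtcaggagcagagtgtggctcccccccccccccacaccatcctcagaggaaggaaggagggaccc

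Library totals ranged from 20354677 to 25059371 counts, so the sequencing depth was similar throughout. Values are CPM, the counts of a gene relative to the library's total, scaled by TMM factors between 0.9581 and 1.032. Fold changes, their standard errors (SE) and p-values come from edgeR's quasi-likelihood test on the counts, with p-values adjusted by Benjamini-Hochberg over all 18618 genes tested and a threshold of 0.05. Each value after ± beside a log2 fold change is its SE. Both comparisons with TD use the same 5 TD libraries, so their results are not independent of each other.

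Under the strain patch, 15 of the 45 members passed the test against TD, 14 higher and 1 lower. That is 33.3% of the members, where 12.6% of all genes passed (6.2% higher, 6.41% lower). The genes that rose were Mki67, Top2a, Cdk4, Mcm7, Tyms, Ccna2, Ccnb1, Ccnb2, Cdk1, Bub1, Bub1b, Birc5, Kif20a and Cenpe, and the gene that fell was Cdkn2a. The median log2 fold change was 0.36 over the members and 0.02 over all genes. A positive value was found for 37 of 45 members and for 9831 of all 18618 genes. Under the patch without strain, 6 members passed against TD, 13.3% against 17.8% of all genes (9.35% higher, 8.4% lower), a smaller share than the background. Cdk4, Cdt1 and Cdkn1c rose there, and Ccnd2, Cdkn1b and Cdkn2a fell. The members' median was 0.20 beside 0.00 for all genes, with 37 of 45 again positive, beside 9441 of all 18618 genes.

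Strain was also compared with No Strain directly. No member passed, and neither did any other gene (0% of 18618). Before adjustment, edgeR put Mcm7, Kif20a and Ccna2 under 0.05, 3 of 45, where 5.61% of all genes were at that level (1045 genes). Their log2 values were 0.24 ± 0.0956, 0.34 ± 0.136 and 0.28 ± 0.120, and all their adjusted p-values were 0.872. DESeq2 called 0 members at an adjusted p under 0.05, and 0.177% of all genes. The members' median log2 fold change was 0.09, beside 0.01 for all genes. Of the 45 members 36 were positive, beside 9714 of all 18618 genes. The larger number of members called against TD under strain than under no strain is therefore not a shown difference between the patches.

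**Figure D1:**
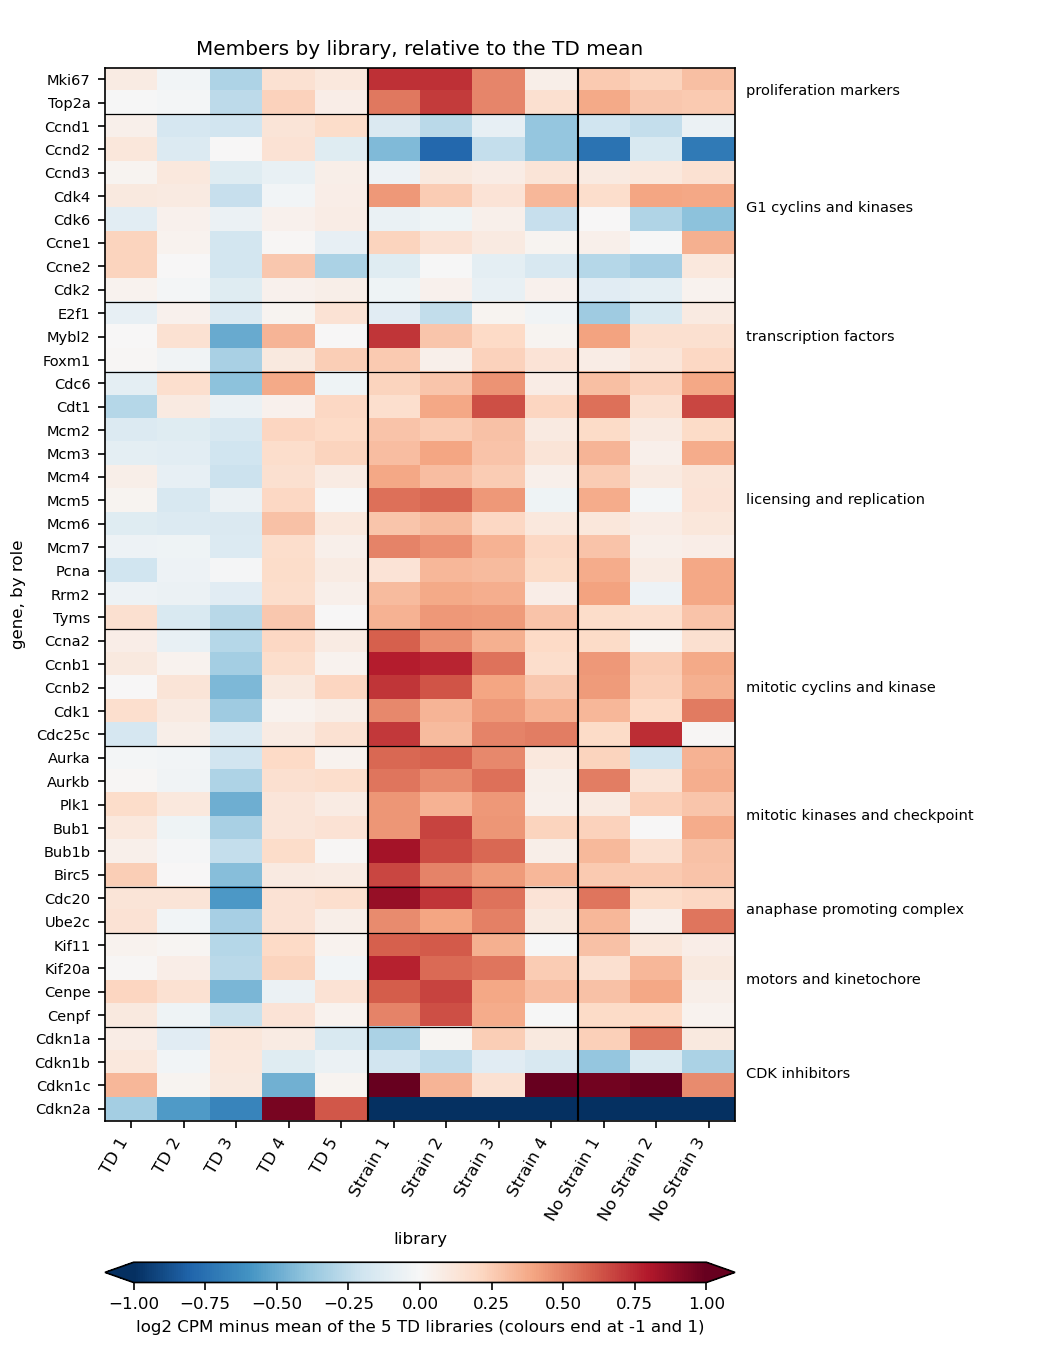
Each row is 1 of the 45 members, grouped by role, and each column 1 of the 12 libraries. Colour gives log2 CPM minus the mean of the TD libraries. Mitotic members are mostly above the TD mean in all 7 patch libraries and below it in TD 3. Cdkn2a is below that mean in all 7 patch libraries.

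Some marker lists of other cell types moved with the groups, and all are given here because the members' values sit beside them. Of all genes, 6.2% were higher and 6.41% lower in Strain than in TD. In No Strain these shares were 9.35% and 8.4%, and lists with few calls are to be read beside them. Of 11 tested skeletal muscle genes, 8 were lower in Strain than in TD and 3 in No Strain, and their summed level ranged from 6648 to 15664 CPM in TD, from 3005 to 5719 CPM in Strain and from 4276 to 9450 CPM in No Strain. All 8 neutrophil genes were higher in Strain and 6 of 8 in No Strain, with sums of 405 to 1599, 782 to 8594 and 2104 to 5129 CPM in TD, Strain and No Strain. Of 8 adipocyte genes, 5 were lower in Strain and 8 in No Strain, with sums of 1149 to 2592, 843 to 1253 and 651 to 924 CPM. Markers of the labelled tissue, skin, were present in all libraries, with sums of 4715 to 11361 CPM for basal keratinocyte genes and 42622 to 74063 CPM for fibroblast genes. Of the 8 basal keratinocyte genes, 2 were lower in Strain and 4 in No Strain. Higher under strain and no strain were 4 and 4 of 8 endothelial genes, 3 and 2 of 8 T cell genes and 1 and 1 of 5 matched wound keratinocyte genes, and no macrophage, fibroblast or differentiated epidermis gene passed. The anagen hair follicle list summed to 5.22 to 97.8 CPM in TD and to 2.79 to 5.32 CPM under the patches, with 1 of 7 tested genes lower in each comparison and TD 2 and TD 4 holding the highest sums. Dsg4 of that list had no count in No Strain, and no other marker of these lists was at 0 in a whole group.

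The members' calls changed with covariates and with single libraries, and so did the share of all genes called. With the mean skeletal muscle level of each library as a covariate, no member passed in Strain against TD. Of all genes, 0.00537% passed in that setting, beside 12.6% as reported, and the members' median was 0.20. With the basal keratinocyte level as a covariate, 2 passed, Cdkn2a and Kif20a, and with the title letter, 2 passed, Mcm7 and Cdt1. The all-gene shares there were 4.01% and 4.29%. Without Strain 2 only Cdkn2a passed, without TD 2 or without Strain 1 the count was 5, and without TD 3 it was 8. All-gene shares without these libraries were 4.75%, 7.69%, 8.92% and 7.03%. DESeq2 called 24 members and 18.9% of all genes. The 21 alternative ways of processing include leaving out each of the 12 libraries, also those of the group not compared. Over them, the strain call held in 18 for Mcm7 and Kif20a and in 17 for Top2a and Ccnb1. It held in 14 for Mki67, Ccna2, Bub1b and Birc5, and in 13 for Cdk1. It held in 7 for Cenpe, 6 for Bub1, 5 for Tyms and 4 for Cdk4, so these calls were lost in most of them. Ccnb2, also called under strain, was not followed over the alternatives. The no strain call held in 17 for Cdkn1b, 14 for Cdkn1c, 12 for Cdk4, 11 for Ccnd2 and 7 for Cdt1. The part of the other cell types' RNA in the individual results was not tested.

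**Figure D2:**
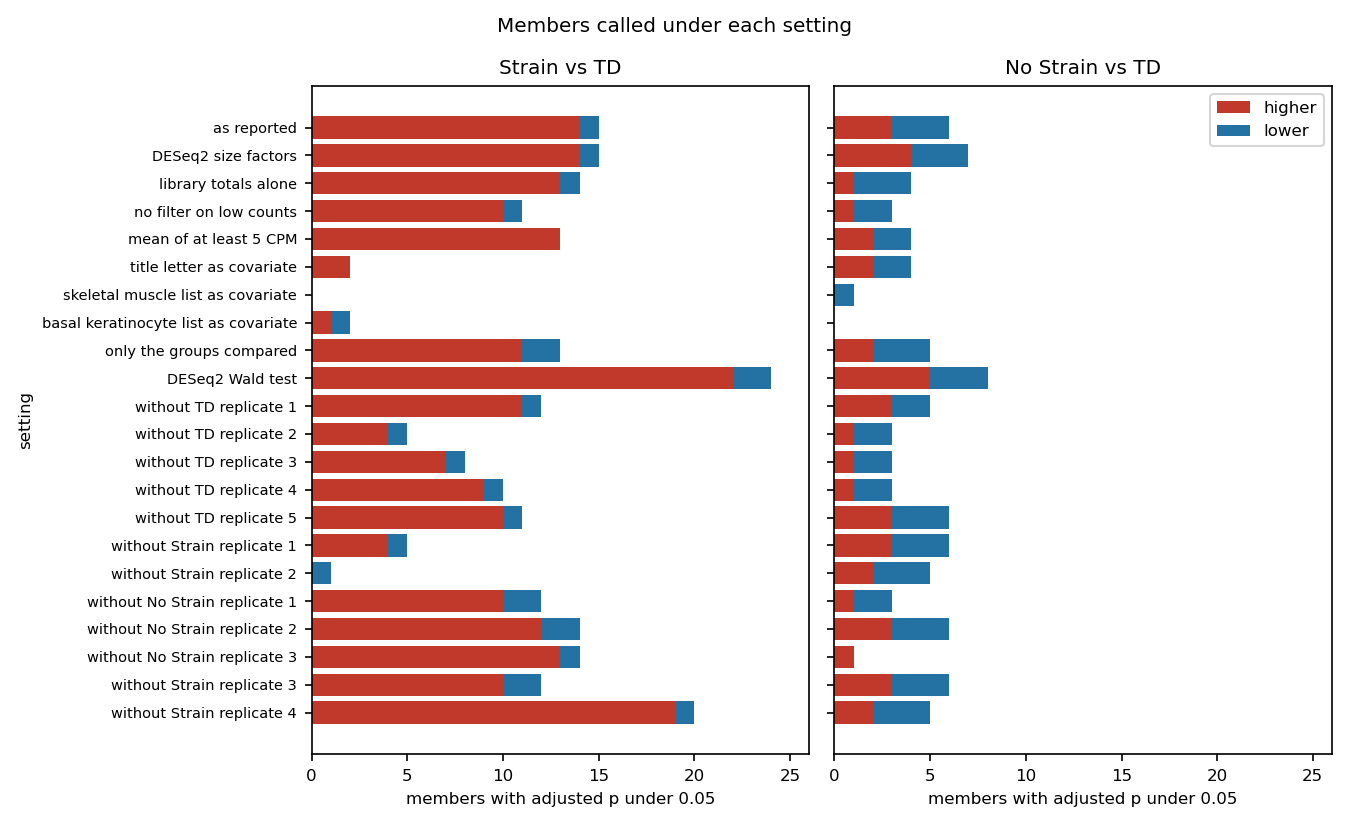
Bars give the number of the 45 members called higher or lower than TD at an adjusted p under 0.05, for each way of processing the counts and with each library left out. The count for Strain against TD runs from 0 with the skeletal muscle covariate to 24 with DESeq2, around the reported 15. The share of all genes called was 0.00537% with that covariate and 18.9% with DESeq2, beside the reported 12.6%.

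Both proliferation markers were higher under strain, where 12.6% of all genes passed. Mki67 encodes the Ki-67 protein that coats mitotic chromosomes. It stood at 70.9, 65.7, 54.1, 74.4 and 72.2 CPM in TD, 111, 111, 93.8 and 69.8 CPM under strain and 80.5, 78.3 and 82.5 CPM under no strain, with means of 67.4 ± 8.13 CPM (SD, n = 5), 96.6 ± 19.6 CPM (SD, n = 4) and 80.4 ± 2.09 CPM (SD, n = 3). Strain 1, 2 and 3 were above every TD library and Strain 4 was within their range, whereas all No Strain libraries lay just above it. Relative to TD the log2 fold change was 0.52 ± 0.132 under strain (adjusted p = 0.0288), a 1.43-fold level, and 0.25 ± 0.144 under no strain (adjusted p = 0.244). Strain against No Strain gave 0.26 ± 0.152 (adjusted p = 0.881). Top2a encodes the topoisomerase that untangles replicated DNA. Its values were 56.6, 55.99, 47.4, 66.5 and 59.5 CPM in TD, 82.1, 92.4, 79.9 and 63.5 CPM under strain and 73.9, 68.6 and 68.3 CPM under no strain. The log2 fold changes were 0.47 ± 0.110 (adjusted p = 0.0204) and 0.30 ± 0.119 (adjusted p = 0.107), and only Strain 4, of the patch libraries, fell within the TD range.

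Of the 8 G1 cyclins and kinases, 1 rose under strain and none fell, while under no strain 1 rose and 1 fell. These are 12.5% and 25% of the role, beside 12.6% and 17.8% of all genes. Cdk4, the kinase partner of D-type cyclins, was at 130.4, 129, 104, 119 and 127 CPM in TD, 164, 145, 134 and 153 CPM under strain and 137, 159.8 and 159 CPM under no strain. No patch library overlapped TD, and the log2 fold change was 0.29 under strain (SE 0.0855, adjusted p = 0.0471) and 0.32 under no strain (SE 0.0925, adjusted p = 0.0367). Between the patches it was -0.03 ± 0.0975 (adjusted p = 0.992). Its call under strain held in 4 of the 21 alternative ways of processing, with adjusted p from 0.0160 to 0.996, and in 12 of 21 under no strain. Opposite-strand exons of Tspan31 cover 19.7% of its exon length. Tspan31 itself had log2 values of 0.07 under strain (adjusted p = 0.477) and 0.13 under no strain (adjusted p = 0.206).

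Ccnd2, which encodes cyclin D2, went the other way. It was at 165, 139.6, 154, 169 and 141 CPM in TD, 113, 88.9, 129.8 and 117 CPM under strain and 91.7, 138 and 93.9 CPM under no strain, and every patch library was below every TD library. Under no strain it fell (log2 -0.51 ± 0.152, adjusted p = 0.0389), and under strain its value was -0.45 ± 0.138 with an adjusted p of 0.0521, which did not pass. The cyclin D1 gene Ccnd1 was at 53.3, 45.7, 45.2, 56.1 and 58.3 CPM in TD, 46.7, 42.7, 48.6 and 39.3 CPM under strain and 44.9, 43.7 and 49.5 CPM under no strain, with overlapping groups and adjusted p of 0.134 and 0.274. Opposite-strand exons of Lto1 cover 23.4% of its exon length. Lto1 itself had log2 values of -0.12 under strain (adjusted p = 0.161) and -0.23 under no strain (adjusted p = 0.0223). Cdk6, the other kinase of D-type cyclins, was at 64.1, 71.03, 66.3, 71.02 and 72.6 CPM in TD, 65.7, 66.9, 71.3 and 58.7 CPM under strain and 68.99, 56.03 and 51.9 CPM under no strain. Its log2 values were -0.07 and -0.23 (adjusted p = 0.618 and 0.114), and its groups overlapped. The remaining G1 members, Ccnd3, Ccne1, Ccne2 and Cdk2, had log2 values between -0.18 and 0.14 in the comparisons with TD, and none passed.

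None of the 3 transcription factors passed in either comparison with TD, where 12.6% and 17.8% of all genes did. Foxm1 drives genes of G2 and mitosis and stood at 17.9, 17.3, 14.2, 18.9 and 20.9 CPM in TD, 21.2, 18.3, 20.8 and 19.5 CPM under strain and 18.6, 19.3 and 20.4 CPM under no strain. The log2 values were 0.16 ± 0.101 and 0.13 ± 0.110 (adjusted p = 0.312 and 0.458). Mybl2, which encodes B-Myb, was at 7.28, 8.05, 5.10, 9.17 and 7.28 CPM in TD, 11.9, 8.78, 8.33 and 7.38 CPM under strain and 9.59, 8.11 and 8.08 CPM under no strain. Its adjusted p-values were 0.276 and 0.453. E2f1, an activator of S phase genes, had negative log2 values, -0.09 and -0.13 (adjusted p = 0.554 and 0.427), from levels of 21.5, 23.4, 20.7, 23.2 and 25.2 CPM in TD, 21.02, 19.1, 23.1 and 22.1 CPM under strain and 17.8, 20.5 and 24.2 CPM under no strain. The groups overlapped for all 3 genes.

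**Figure D3:**
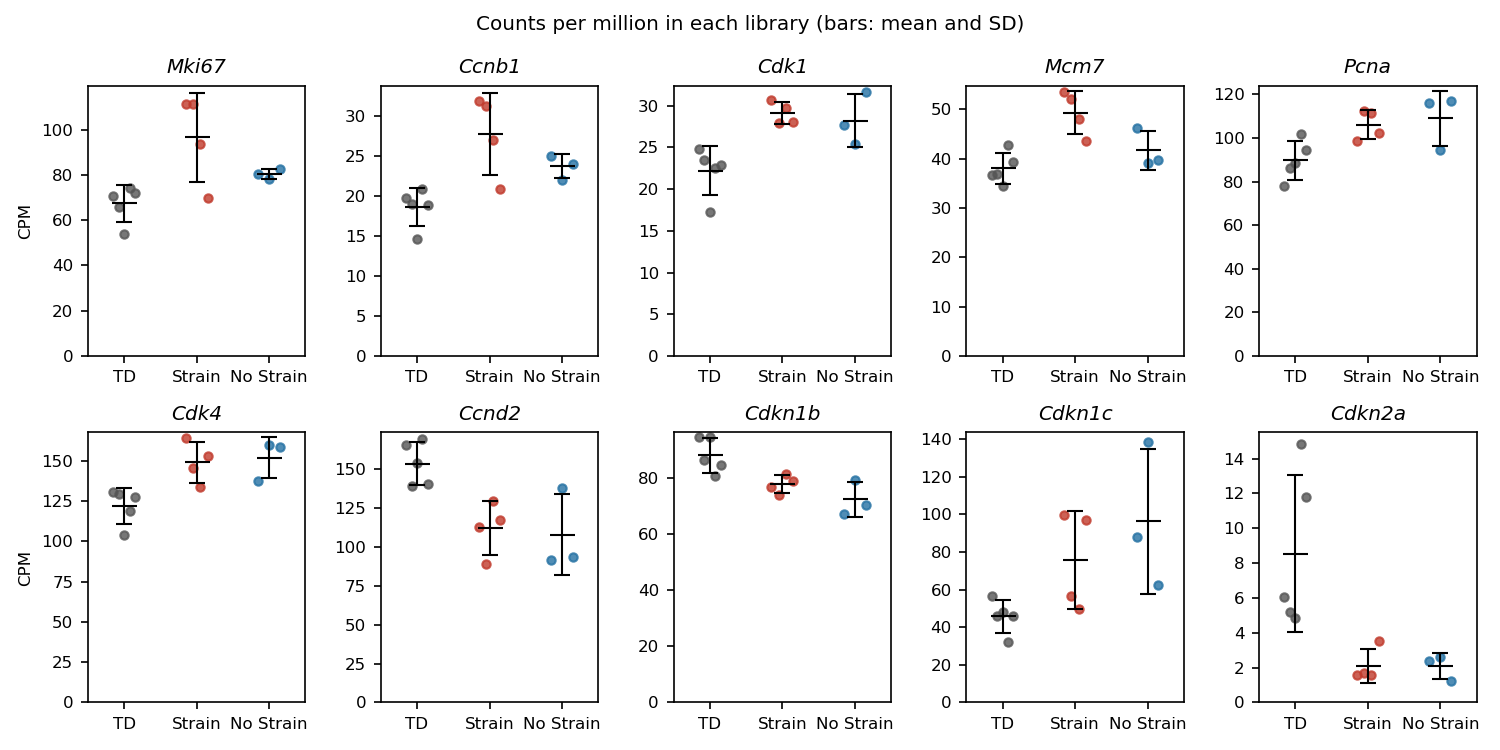
Points are single libraries, in CPM on axes that start at 0, for 10 members in TD, Strain and No Strain, and bars give the mean and SD. Strain 4 lies apart from Strain 1 to 3 towards TD for Mki67 and Ccnb1, and for Cdkn2a the patch libraries, 1.25 to 3.55 CPM, are below all TD libraries, 4.86 to 14.8 CPM.

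Licensing and replication genes shared a direction more than they passed the test. Under strain all 11 had a positive log2 value against TD (median 0.27), as did 9831 of all 18618 genes. Of the 11, 10 had an unadjusted p under 0.05 in edgeR, where 29.5% of all genes did. After adjustment 2 of 11 passed, 18.2% beside 12.6% of all genes. Under no strain all 11 were again positive (median 0.20), beside 9441 of 18618 genes. There 1 passed, 9.09% beside 17.8% of all genes. Mcm7, a subunit of the replicative helicase, was at 36.7, 36.8, 34.4, 42.8 and 39.3 CPM in TD, 53.6, 51.99, 48.1 and 43.7 CPM under strain and 46.3, 39.2 and 39.7 CPM under no strain. All Strain libraries were above all TD libraries, and the log2 fold change was 0.38 ± 0.0833 (adjusted p = 0.0172), passing in 18 of 21 alternative ways of processing. Under no strain it was 0.13 ± 0.0908 (adjusted p = 0.334), with values that overlapped TD.

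Tyms makes the thymidylate used in DNA synthesis. Its levels were 14.8, 11.9, 10.9, 15.9 and 13.2 CPM in TD, 16.8, 17.8, 17.8 and 16.2 CPM under strain and 15.03, 14.8 and 16.1 CPM under no strain, and it rose under strain (log2 0.36 ± 0.106, adjusted p = 0.0452), and did not pass under no strain (0.20 ± 0.115, adjusted p = 0.254). The strain call is close to the threshold and held in 5 of 21 alternatives, with adjusted p up to 0.620. Cdt1 loads the helicase onto origins. It was at 11.7, 15.2, 13.7, 14.7 and 16.5 CPM in TD, 16.00, 18.6, 22.3 and 16.5 CPM under strain and 20.9, 15.9 and 22.6 CPM under no strain, and passed under no strain (log2 0.47 ± 0.147, adjusted p = 0.0476, and 0.106 under strain), while 1 No Strain library lay inside the TD range. The no strain call held in 7 of 21 alternatives. Strain against No Strain gave -0.11 ± 0.155 for this gene (adjusted p = 0.966). Pcna, the sliding clamp of the DNA polymerases, was at 78.00, 86.2, 88.6, 102 and 94.7 CPM in TD, 98.6, 112, 111 and 102 CPM under strain and 116, 94.5 and 117 CPM under no strain. Neither adjusted p, 0.0931 and 0.0633, passed. The other members of the role, Cdc6, Mcm2, Mcm3, Mcm4, Mcm5, Mcm6 and Rrm2, had log2 values from 0.22 to 0.39 under strain and from 0.09 to 0.28 under no strain.

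Mitotic cyclins and their kinase held the largest share of calls under strain among roles of 3 or more members. There 4 of 5 rose, 80% beside 12.6% of all genes. None passed under no strain, where 17.8% of all genes did. Ccnb1, which encodes the main mitotic cyclin, was at 19.7, 18.9, 14.6, 20.8 and 18.9 CPM in TD, 31.8, 31.2, 26.9 and 20.8 CPM under strain and 24.98, 22.01 and 23.98 CPM under no strain. All 7 patch libraries were above all 5 TD libraries, with Strain 4 the lowest of them. The means were 18.6 ± 2.36 CPM (SD, n = 5), 27.7 ± 5.08 CPM (SD, n = 4) and 23.7 ± 1.51 CPM (SD, n = 3). The log2 fold change was 0.58 ± 0.131 under strain (adjusted p = 0.0189), a 1.49-fold level, and 0.35 ± 0.142 under no strain (adjusted p = 0.110).

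Cdk1, the kinase that cyclin B activates, was at 24.8, 23.5, 17.3, 22.6 and 22.9 CPM in TD, 30.7, 27.95, 29.7 and 28.04 CPM under strain and 27.7, 25.4 and 31.6 CPM under no strain. No patch library overlapped TD. It rose under strain (log2 0.39 ± 0.102, adjusted p = 0.0309) and missed the threshold narrowly under no strain (0.35 ± 0.110, adjusted p = 0.05003), so the calls differ where the estimates hardly do. Cyclin A2, from Ccna2, acts in S phase and early mitosis. Its levels were 25.4, 22.96, 19.9, 28.02 and 25.6 CPM in TD, 36.7, 33.4, 30.95 and 27.8 CPM under strain and 27.7, 24.5 and 27.1 CPM under no strain, and it rose under strain (log2 0.40 ± 0.105, adjusted p = 0.0311), with 0.12 ± 0.114 under no strain (adjusted p = 0.514). Strain 4 was within the TD range for Ccna2, and exons of Exosc9 on the opposite strand cover 12.5% of its length. Exosc9 itself had log2 values of 0.14 under strain (adjusted p = 0.145) and 0.20 under no strain (adjusted p = 0.0608). Ccnb2, a second B-type cyclin, also rose under strain (log2 0.49 ± 0.133, adjusted p = 0.0341). Cdc25c, the phosphatase that activates Cdk1, was at 0.51 (adjusted p = 0.0537).

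Of the 6 mitotic kinases and checkpoint genes, 3 rose under strain, 50% beside 12.6% of all genes. All 6 had positive values there (median 0.44), and none passed under no strain, where 17.8% of all genes did. Bub1b encodes BubR1, a checkpoint protein that restrains the anaphase promoting complex. It was at 20.8, 19.9, 16.98, 22.8 and 20.2 CPM in TD, 35.7, 31.6, 29.9 and 20.9 CPM under strain and 25.1, 22.4 and 24.6 CPM under no strain, where Strain 4 alone of the Strain libraries fell within the TD range. The log2 fold change was 0.55 ± 0.134 under strain (adjusted p = 0.0244) and 0.25 ± 0.146 under no strain (adjusted p = 0.250). Birc5 encodes survivin, a subunit of the chromosomal passenger complex, and stood at 15.8, 13.4, 9.93, 14.2 and 14.1 CPM in TD, 21.1, 18.8, 17.9 and 16.7 CPM under strain and 15.9, 15.96 and 16.2 CPM under no strain. All patch libraries were above TD, and the strain change was 0.47 ± 0.119 (adjusted p = 0.0285), against 0.25 ± 0.130 under no strain (adjusted p = 0.202). Bub1, a checkpoint kinase, was at 7.78, 7.03, 5.78, 7.87 and 8.02 CPM in TD, 9.84, 11.6, 9.81 and 8.44 CPM under strain and 8.51, 7.25 and 9.39 CPM under no strain, and rose under strain (log2 0.44 ± 0.129, adjusted p = 0.0449), a call that held in 6 of 21 alternatives. The kinases Aurka, Aurkb and Plk1 had strain values of 0.44, 0.41 and 0.31, with adjusted p of 0.0527, 0.0621 and 0.155.

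Neither gene of the anaphase promoting complex pathway passed against TD, where 12.6% of all genes did under strain and 17.8% under no strain. Cdc20, its activator, was at 18.5, 18.5, 11.3, 18.7 and 18.98 CPM in TD, 30.9, 27.7, 24.6 and 18.6 CPM under strain and 24.4, 19.1 and 19.5 CPM under no strain. The 4 higher TD values were close together and TD 3 was well below them. Its strain estimate of 0.57 ± 0.175 was close to that of Ccnb1, but the adjusted p was 0.0542. Ube2c, its ubiquitin-conjugating enzyme, was at 16.7, 14.8, 12.04, 16.7 and 15.8 CPM in TD, 20.9, 19.9, 21.4 and 16.2 CPM under strain and 19.04, 15.6 and 21.9 CPM under no strain, with 0.36 ± 0.128 under strain (adjusted p = 0.0832). Opposite-strand exons of Tnnc2, a muscle gene with 57 counts in all libraries together, cover 22.8% of the Ube2c exon length. Tnni2 and Tnnt3, also muscle genes, had 71989 and 176365 counts. Why Tnnc2 had so few was not tested, so its count does not show that Ube2c is free of its reads.

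Motors and kinetochore genes included 2 calls of 4 under strain and none under no strain. These are 50% and 0% of the role, beside 12.6% and 17.8% of all genes. Kif20a, a kinesin of the late spindle, was at 12.1, 12.6, 9.93, 13.97 and 11.7 CPM in TD, 20.5, 17.8, 17.4 and 14.3 CPM under strain and 13.4, 15.1 and 12.8 CPM under no strain. Every Strain library was above TD, and the log2 fold change of 0.53 ± 0.118 (adjusted p = 0.0171) passed in 18 of 21 alternative ways of processing. Under no strain it was 0.19 ± 0.129 (adjusted p = 0.328), with overlapping values. Opposite-strand exons of Cdc23 cover 29.3% of the Kif20a length. Cdc23 itself had a log2 value of -0.03 under strain (adjusted p = 0.781). Cenpe, the kinetochore motor that aligns chromosomes, was at 13.9, 13.4, 8.77, 11.5 and 13.3 CPM in TD, 18.2, 19.2, 15.7 and 14.9 CPM under strain and 14.8, 15.7 and 12.5 CPM under no strain, and rose under strain (log2 0.48 ± 0.139, adjusted p = 0.0433), a call that held in 7 of 21 alternatives, with log2 values down to 0.05. Cenpf, another kinetochore protein, was at 14.4, 13.1, 11.6, 14.9 and 13.9 CPM in TD, 19.03, 21.2, 17.5 and 13.5 CPM under strain and 15.4, 15.5 and 13.8 CPM under no strain. It did not pass (log2 0.39 ± 0.122, adjusted p = 0.0571), and neither did the spindle motor Kif11 (0.40, adjusted p = 0.0624).

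**Figure D4:**
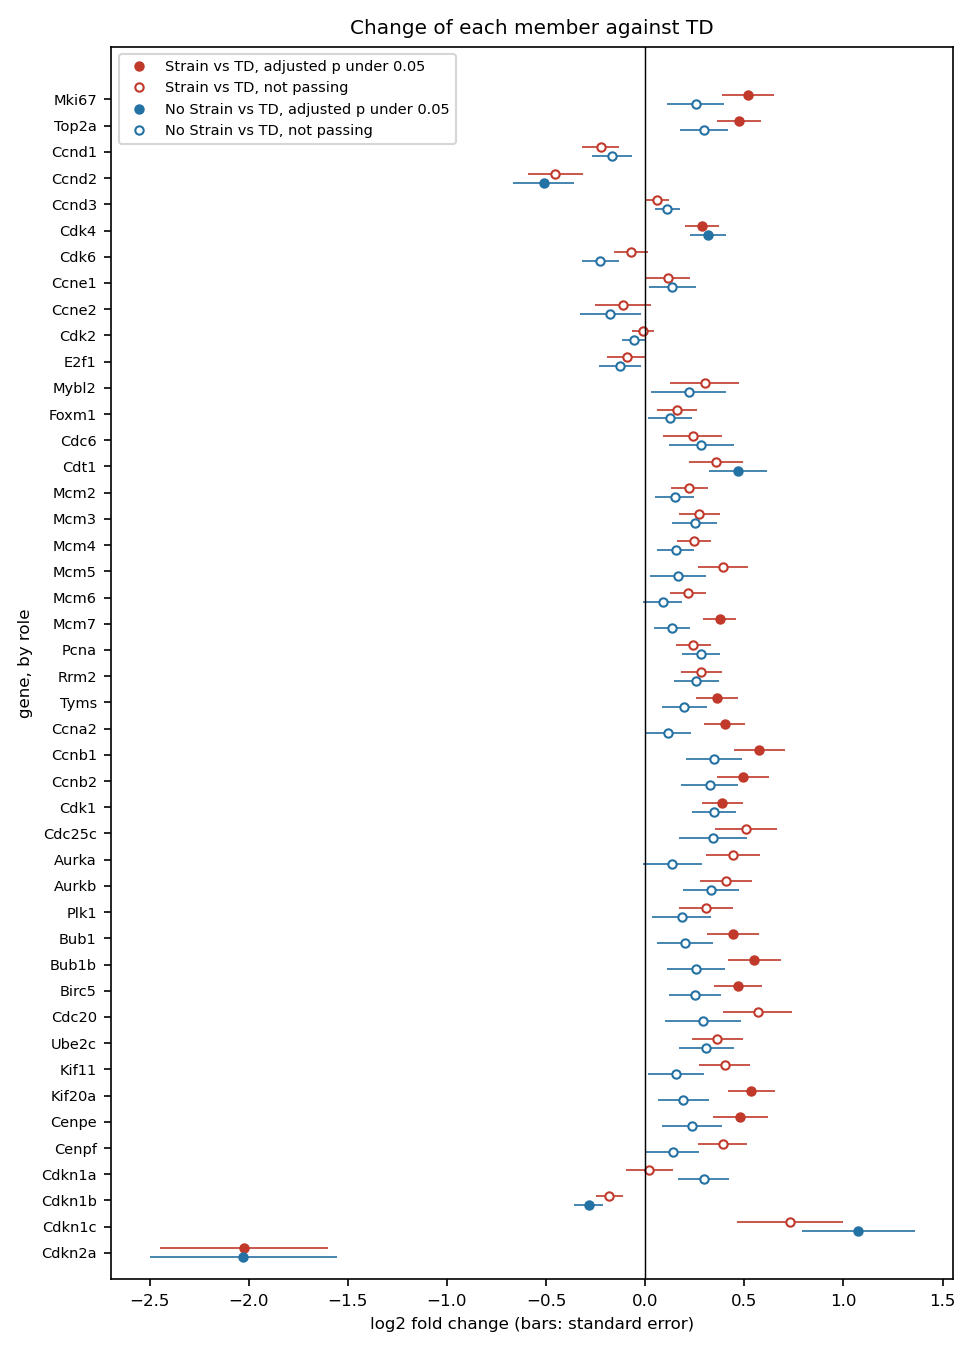
Log2 fold change of each of the 45 members in Strain and in No Strain against TD, with bars of 1 SE and filled points for an adjusted p under 0.05. Outside the G1 genes and the inhibitors nearly all points lie above 0, and Cdkn2a lies at -2.02 and -2.03.

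The CDK inhibitors did not move together: under strain 1 of 4 fell, and under no strain 1 rose and 2 fell. These are 25% and 75% of the role, beside 12.6% and 17.8% of all genes. Cdkn2a, which encodes p16Ink4a and p19Arf and is widely used as a mark of senescent cells, had the largest change of all members. It was at 6.05, 5.18, 4.86, 14.8 and 11.8 CPM in TD, 1.59, 1.71, 1.56 and 3.55 CPM under strain and 2.39, 2.62 and 1.25 CPM under no strain. The TD libraries themselves spread, with TD 4 and TD 5 above the others, yet all 7 patch libraries were below all of them. The raw counts were 122 to 367 per library in TD and 27 to 74 under the patches. Means were 8.54 ± 4.50 CPM (SD, n = 5), 2.10 ± 0.966 CPM (SD, n = 4) and 2.09 ± 0.729 CPM (SD, n = 3). The log2 fold change was -2.02 ± 0.423 under strain (adjusted p = 0.0147), a 4.07-fold lower level, and -2.03 ± 0.472 under no strain (adjusted p = 0.0157). The call held in 18 of 20 alternative ways of processing in each comparison. Under strain it was lost with the title letter and the skeletal muscle covariates, and under no strain with the basal keratinocyte covariate and without No Strain 3, with the log2 value between -3.16 and -1.74 over the alternatives of strain and between -2.68 and -1.74 over those of no strain. Strain against No Strain gave 0.00 (adjusted p = 0.999). The counts do not tell which of the 2 transcripts, whose windows are printed above, accounts for it.

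Cdkn1c encodes p57, another inhibitor of CDKs. It was at 56.5, 45.8, 48.03, 32.1 and 45.9 CPM in TD, 99.4, 56.8, 49.9 and 96.9 CPM under strain and 87.9, 138 and 62.5 CPM under no strain. All No Strain libraries were above TD, and Strain 1 and 4 were high while Strain 2 and 3 were near or within the TD range. It rose under no strain (log2 1.07 ± 0.285, adjusted p = 0.0262), a 2.11-fold level, and the strain value of 0.73 ± 0.267 did not pass (adjusted p = 0.0942). Means were 45.7 ± 8.75 CPM (SD, n = 5), 75.7 ± 26.01 CPM (SD, n = 4) and 96.2 ± 38.5 CPM (SD, n = 3). An antisense gene, Gm44732, overlaps 30.7% of its exon length but had 3 counts in all.

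Cdkn1b, which encodes p27, was at 94.7, 86.2, 94.5, 80.7 and 84.4 CPM in TD, 76.8, 73.8, 81.3 and 78.8 CPM under strain and 67.2, 79.2 and 70.4 CPM under no strain. It fell under no strain (log2 -0.29 ± 0.0736, adjusted p = 0.0232), where no library overlapped TD, and its strain value of -0.18 ± 0.0672 did not pass (adjusted p = 0.0967). Cdkn1a, which encodes p21, the inhibitor that p53 induces, was at 159, 139, 163, 159 and 135 CPM in TD, 121, 152, 178 and 161 CPM under strain and 178, 217 and 161 CPM under no strain. No comparison passed for it (0.02 under strain, adjusted p = 0.929, and 0.29 under no strain, adjusted p = 0.131).

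Calls under no strain also rested on single libraries. The count of 6 became 3 without TD 2, TD 3, TD 4 or No Strain 1, and without No Strain 3 only Cdkn1c passed. All-gene shares without these libraries were 13.2%, 12.7%, 12.7%, 8.74% and 7.88%, beside 17.8% as reported. With the basal keratinocyte covariate none passed, with the skeletal muscle covariate 1 did, Cdkn2a, and with no filter on low counts 3 did. Of all genes, 1.04%, 3.58% and 6.67% passed in these settings, the last of 35687 genes, so calls fell for genes in general. When both patch groups were compared with TD together, 19 members passed, 16 higher and 3 lower (42.2%, where 24.4% of all genes passed, 12.4% higher and 12.1% lower). This count was 10 without TD 1, TD 2, TD 3, Strain 2 or No Strain 1, 12 without No Strain 3 and 29 without Strain 4. Among these settings the share of all genes called ran from 17.2% without TD 3 to 23.9% without Strain 4. The member count was 8 with the title letter, 1 with the basal keratinocyte and 0 with the skeletal muscle covariate. All-gene shares there were 13.9%, 3.65% and 0.134%.

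Groups that do not overlap give a view without a model. In Strain against TD, 13 of 45 members had no overlap, 28.9% beside 14.6% of all genes. In No Strain against TD it was 12 of 45, 26.7% beside 26.7%. For the patches against each other it was 3 of 45 (Tyms, Ccna2 and Birc5), 6.67% beside 5.62%.

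Which library was lowest in its group was counted for the 41 members other than the inhibitors, as a description with no test. TD 3 was the lowest TD library for 34 of these 41 genes, and TD 4 the highest for 21. TD 3 also had the highest skeletal muscle (15664 CPM summed) and adipocyte (2592 CPM) levels of TD. Strain 4 was the lowest Strain library for 31 of 41, and No Strain 2 the lowest of its group for 25. The coefficient of variation between libraries had a median of 12.1% in TD, 11.0% in Strain and 8.58% in No Strain over these genes. Levels per kilobase of exon, averaged over all libraries, were highest for Cdkn1a, Cdk4 and Pcna (45.1, 42.6 and 41.7 CPM per kb) and lowest for Cdc6, Cenpf and Cdc25c (1.08, 0.993 and 0.863 CPM per kb).

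**Figure D5:**
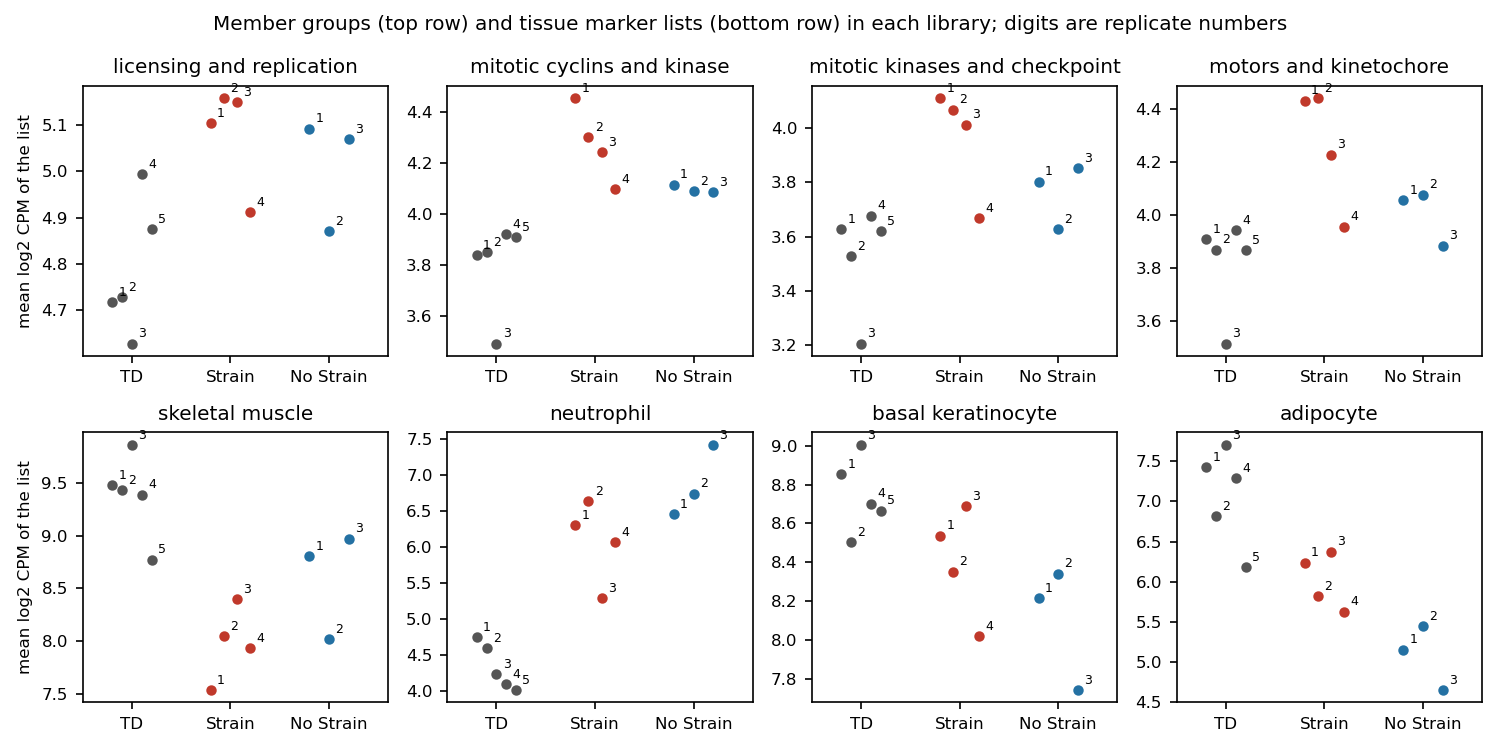
Each panel plots the mean log2 CPM of 1 gene list in each library, with the digit giving the replicate. In the 4 cell cycle panels TD 3 and Strain 4 are the lowest libraries of their groups, and the skeletal muscle panel has its highest value, 9.86, in TD 3.

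Other genes of the same pathways, not among the 45, were read from 4 lists, beside 12.6% of all genes called under strain and 17.8% under no strain. These lists were chosen with earlier results of these data known and read in the same 12 libraries, so they are no independent check of the members. Their calls were not followed over the alternative ways of processing. Of 32 other S phase genes, 11 rose under strain and none fell (34.4%, median log2 0.28), and 3 rose under no strain (9.38%, median 0.14), the latter a smaller share than that of all genes. Chaf1b, a subunit of the factor that assembles chromatin on new DNA, rose in both (log2 0.54 ± 0.0877, adjusted p = 0.00694, and 0.46 ± 0.0949, adjusted p = 0.00977), as did Rfc2, which loads the PCNA clamp (0.28 and 0.26, adjusted p = 0.0101 and 0.0128). Hells, a chromatin remodeller, rose under strain (0.52, adjusted p = 0.0138).

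Of 38 other G2 and M phase genes, 14 rose and 1 fell under strain (39.5%, median 0.33), and 2 rose and 1 fell under no strain (7.89%, median 0.15), again below the share of all genes under no strain. Tacc3, a spindle protein, rose in both (0.41 and 0.32, adjusted p = 0.00742 and 0.0155). Cdca3 rose under strain (0.55, adjusted p = 0.0124). The gene that fell was Cdc25b, a phosphatase that starts Cdk1 activation, from 33.8 CPM in TD to 28.3 CPM and 23.5 CPM (log2 -0.26 and -0.53, adjusted p = 0.0393 and 0.00305).

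The 22 RB and E2F regulators gave 2 calls in each comparison with TD, all lower. At 9.09% each, these shares are below those of all genes. Cdkn2b, the neighbour of Cdkn2a that encodes the CDK inhibitor p15, was at 21.9, 20.5, 22.2, 21.4 and 15.8 CPM in TD, 15.2, 13.5, 14.3 and 13.9 CPM under strain and 15.4, 16.05 and 9.39 CPM under no strain. It fell under both patches (log2 -0.52 ± 0.150, adjusted p = 0.0442, and -0.58 ± 0.165, adjusted p = 0.0334). The repressor E2f6 fell under strain (-0.40, adjusted p = 0.0194), and the inhibitor gene Cdkn2c fell under no strain (-0.56, adjusted p = 0.0145).

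The 18 p53 target genes were split, 1 higher and 3 lower under strain (22.2%, beside 12.6% of all genes), and 3 higher and 3 lower under no strain (33.3%, beside 17.8%). Bax, which promotes cell death, rose in both (0.40 and 0.49, adjusted p = 0.0165 and 0.00684). Ddit4l, a stress gene, fell in both (-0.89 and -1.09, adjusted p = 0.0123 and 0.00574), and Gadd45a, a stress gene that can slow the cell cycle, rose under no strain (0.75, adjusted p = 0.00719).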

How the data were processed

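Poly(A) RNA of 12 wound libraries was sequenced, and the authors deposited 1 table of raw read counts per gene for each library, 54232 Ensembl identifiers long. The submitters' processing notes name bcl2fastq 2.17, FastQC, cutadapt, STAR, featureCounts, DESeq2 and GRCm38. The annotation release and the strand setting are not given in the sources used here, so overlapping opposite-strand genes may share counts.

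Groups came from the labels' group field. Symbols came from GENCODE M21 (54165 of 54232 matched). The members and lists were chosen with earlier results of these data known. Counts were filtered with filterByExpr (count 10, total 15), scaled by TMM and fitted with edgeR 4.0.16 (robust quasi-likelihood, all 3 groups in 1 fit) in R 4.3.3, with limma 3.58.1. The threshold was an adjusted p of 0.05. CPM used TMM library sizes, and list means of log2 CPM used a prior count of 2. Depth was 20354677 to 25059371 counts, which puts a floor of 3 counts at 0.147 CPM or less, for counting error only. The script was tested on simulated data. Replicates differed beyond sampling noise (chi-square per degree of freedom 8.69 to 67.1 over 19 pairs), so each was counted once. This does not show whether some of them came from the same mouse.

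Named genes were Mki67, Top2a, Pcna, Ccnd1, Cdk1, Foxm1, Cdkn1a and Cdkn2a whatever their result, and up to 3 per role and per related list with the smallest p in either comparison with TD. Other genes are named to account for members. Alternatives were DESeq2 1.42.0 (size factors or Wald test), library totals, no filter, a mean of at least 5 CPM, only the compared groups, covariates (title letter, skeletal muscle or basal keratinocyte list mean) and leaving out each library. Promoter windows were searched in Python for exact letters.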

Additional observations from a re-analysis of the deposited data

Results flagged for a closer look

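A library stood apart from the rest of its group in 6 of 90 member values and 5 list means, by Dixon's test at the 95% level, out of 142 values screened in TD and Strain. Chance flags about 1 in 20, or 7.1 of 142. Groups of 3 were not screened, and values are log2 CPM.

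TD 3 was low in most of these. It was at 3.87 for Ccnb1 (next library 4.24), at 4.11 for Cdk1 (4.5), at 3.04 for Plk1 (3.62) and at 3.5 for Cdc20 (4.21). The list means of TD 3 were 3.49 for the mitotic cyclins and kinase (3.84), 3.56 for the anaphase promoting complex pathway (4.06), 3.51 for the motors and kinetochore genes (3.87) and 10.56 for the fibroblast list (10.97). Strain 4 was low for Aurkb, 3.58 (next 3.99), and high for Cdkn2a, 1.83 (next 0.77). The endothelial list was high in TD 5, 5.82 (next 5.54). Without TD 3, 8 members passed in Strain against TD in place of 15, and without Strain 4, 20 did. Of all genes, 7.03% and 10% passed there, in place of 12.6%.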

How the results depend on the processing

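No paired analysis was possible because the labels give no replicate number shared between groups: title numbers differ for every library. Of 45 members, the count called in Strain against TD (reported 15) was 2 with the title letter as covariate, 0 with the skeletal muscle list, 2 with the basal keratinocyte list and 24 with DESeq2, and 1 to 20 over single libraries left out. The all-gene shares (reported 12.6%) were 4.29%, 0.00537%, 4.01% and 18.9%, and 4.75% to 13.3% over left-out libraries. In No Strain against TD (reported 6) the member count was 3 with no filter, 1 with the skeletal muscle list, 0 with the basal keratinocyte list, and 1 to 6 over left-out libraries. The all-gene shares (reported 17.8%) were 6.67%, 3.58% and 1.04%, and 7.88% to 18.4% over left-out libraries. For both patches (reported 19) the member count was 8 with the title letter, 0 with the skeletal muscle list, 1 with the basal keratinocyte list, and 10 to 29 over left-out libraries. The all-gene shares (reported 24.4%) were 13.9%, 0.134% and 3.65%, and 17.2% to 24.7% over left-out libraries. In Strain against No Strain the member count was 0 under every alternative run. The all-gene share (reported 0%) was 0.177% with the DESeq2 Wald test. The members' median log2 change in Strain against TD was 0.20 with the skeletal muscle list (reported 0.36) and 0.29 to 0.39 over left-out libraries. With that list it was 0.10 in No Strain against TD (reported 0.20), 0.13 for both patches (0.26) and 0.05 in Strain against No Strain (0.09). Over left-out libraries it was 0.13 to 0.22 in No Strain against TD, 0.21 to 0.31 for both patches and 0.08 to 0.17 in Strain against No Strain.

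Signs of single genes turned with the skeletal muscle covariate for Cdk4 (-0.0045), Mybl2 (-0.0778), Foxm1 (-0.1045) and Cdkn1c (-0.237) in Strain against TD and for Foxm1 (-0.0181) and Cenpe (-0.01) in No Strain against TD. Cdk6 turned with the title letter (0.0419). Cdkn1a in Strain against TD ran from -0.0715 to 0.1192 over left-out libraries, below 0 without TD 2, TD 5, Strain 3 or Strain 4. The cause was not tested. The summed skeletal muscle levels of TD and Strain do not overlap, and with that covariate the SE of Mki67 in Strain against TD was 0.265, beside 0.132 as reported. Groups of 3 to 5 libraries limit the precision of every value.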
